A study of Mus musculus with 12 samples.

Results

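Neuromodulator G protein-coupled receptors were examined as a set of 10 genes: Hrh3, Cnr1, Adora1, Htr1b, Htr1f, Adra2a, Htr2a, Htr2c, Chrm1 and Chrm3. The set was chosen by name around Hrh3 and Cnr1, which were selected on their lower values with Htt-72Q in these same libraries, so the levels of those 2 genes in Htt-72Q are given as a description without a test. Members were found by mouse symbol through their Ensembl identifiers, and all 10 were matched among the 41388 genes in the files. All 10 also passed the filter on low counts that left 14707 genes for testing.

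RNA was measured in 12 libraries of primary cortical neurons prepared from Swiss Webster mouse embryos at embryonic day 16. Lentivirus was added at day 5 in culture and total RNA, depleted of ribosomal RNA with Ribo-Zero, was taken at day 10. Htt-72Q neurons (4 libraries) received mutant exon 1 of huntingtin with 72 glutamines, Htt-25Q neurons (4 libraries) received wild-type exon 1 with 25 glutamines, and control vector neurons (4 libraries) received an empty or control vector. All groups share the embryonic culture, the viral infection and the harvest day. The model holds exon 1 alone, added by virus to cells that keep their own huntingtin gene; the promoter that drives it is not stated in the labels. The labels do not say whether libraries of a group came from separate cultures or animals, so p-values measure the spread between these libraries, which may be technical. The library descriptions also carry numbers (22, 24, 26, 27 and 27_1), called preparations here, which the labels do not explain.

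These receptors are seven-pass membrane proteins through which diffuse transmitters tune how excitable a neuron is and how much it releases. Receptors coupled to Gi/o proteins lower cyclic AMP, open inward-rectifier potassium channels and restrain calcium entry at terminals; Hrh3 (histamine), Cnr1 (endocannabinoids), Adora1 (adenosine), Htr1b and Htr1f (serotonin) and Adra2a (noradrenaline) are of this kind. Receptors coupled to Gq proteins activate phospholipase C, which raises intracellular calcium and activates protein kinase C; Htr2a and Htr2c (serotonin) and Chrm1 and Chrm3 (acetylcholine) are of this kind. Cnr1 is among the most abundant such receptors in the brain, and loss of CB1 receptor from the striatum is a known early feature of Huntington disease.

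Library totals were 12439335 to 20040985 counts in Htt-72Q, 18097932 to 27471442 counts in Htt-25Q and 12668531 to 23357966 counts in control vector. Levels are given below as CPM (the count per library total) scaled by TMM factors unless stated, with the SD over 4 libraries, and always for libraries 1 to 4 of a group. A gene was called when its edgeR quasi-likelihood p, Benjamini-Hochberg adjusted over 14707 genes, was under 0.05. Fold changes are from the same fit of all 12 libraries.

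The sequence before the start sites shows how the receptor genes differ in promoter composition. RefSeq windows on GRCm38.p6, each of 300 bases, were matched by symbol for 9 of the 10 genes (all but Chrm1), in 12 windows. Shown here, 5′ to 3′ on the gene's strand, are the 250 bases before the start site for Hrh3 and Cnr1, around which the set was built, for Adora1, the second most abundant receptor, and for Chrm3, a called receptor without a match. For a gene with several start sites, the window with most matches is shown. Capitals mark the GC box GGGCGG bound by SP1 proteins, on either strand (CCGCCC when read on the other strand); neighbouring boxes may overlap. The positions are chr2:180104408-180104657 (minus strand) for Hrh3, chr4:33924014-33924263 (plus strand) for Cnr1, chr1:134235458-134235707 (minus strand) for Adora1 and chr13:10360804-10361053 (minus strand) for Chrm3. Start sites here are those of RefSeq. In the files used for counting, the gene reaches to 180104488 for Hrh3 and to 10360844 for Chrm3. The last bases of these stretches therefore lie within those gene models.
Hrh3: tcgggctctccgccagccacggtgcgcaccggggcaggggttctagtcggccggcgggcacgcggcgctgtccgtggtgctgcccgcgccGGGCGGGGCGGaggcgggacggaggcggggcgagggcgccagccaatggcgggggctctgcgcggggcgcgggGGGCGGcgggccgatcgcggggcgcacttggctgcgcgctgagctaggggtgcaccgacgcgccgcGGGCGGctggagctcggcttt
Cnr1: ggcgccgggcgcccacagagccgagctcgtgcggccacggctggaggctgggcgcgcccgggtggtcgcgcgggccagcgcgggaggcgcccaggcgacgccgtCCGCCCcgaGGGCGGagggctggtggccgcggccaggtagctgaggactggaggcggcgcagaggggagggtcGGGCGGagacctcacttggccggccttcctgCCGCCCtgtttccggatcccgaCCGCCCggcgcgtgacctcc
Adora1: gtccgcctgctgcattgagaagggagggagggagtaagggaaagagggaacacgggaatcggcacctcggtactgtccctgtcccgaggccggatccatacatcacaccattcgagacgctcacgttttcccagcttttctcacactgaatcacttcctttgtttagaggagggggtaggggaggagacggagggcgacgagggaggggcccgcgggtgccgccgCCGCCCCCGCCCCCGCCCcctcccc
Chrm3: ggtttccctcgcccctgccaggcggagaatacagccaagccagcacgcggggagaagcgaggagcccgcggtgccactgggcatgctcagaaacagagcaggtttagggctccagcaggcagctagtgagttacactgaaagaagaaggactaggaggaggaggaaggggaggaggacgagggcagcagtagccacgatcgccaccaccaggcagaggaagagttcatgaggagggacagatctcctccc
The Hrh3 stretch holds 4 GC boxes, the Cnr1 stretch 5, the Adora1 stretch 3 and the Chrm3 stretch 0. Bases just after the start site were found in a GENCODE M21 transcript of the gene for the Hrh3 and Chrm3 windows, but not for the Cnr1 and Adora1 windows shown; the other 2 Cnr1 windows and the other Adora1 window, for which they were found, hold 0 GC boxes. Of the 12 whole 300-base windows, 6 had at least 1 GC box, against 35.7% of the 32851 windows in the table. The GC content of the Hrh3 window was 79.0%, against 57.3% for Chrm3. The cyclic AMP response element TGACGTCA was found in 0 of the 12 windows and in 1.79% of all windows, both strands searched. Its shorter core TGACG was found in the Adra2a window and in 20.8% of all windows. The AP-1 motif TGANTCA was found in 1 window each of Adora1 and Htr2c and in 7.81% of all windows, and CTA and TAG parted by 4 bases, which frame the MEF2 motif, in 1 window of Cnr1 and 3.69% of all windows. These matches describe letters, not sites in use, and the RNA data do not say which start site was active.

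Htt-72Q was first set against control vector, the comparison that asks what the expanded exon 1 does to these neurons. Of the 8 receptors other than Hrh3 and Cnr1, 6 were called lower in Htt-72Q (Adora1, Htr1b, Adra2a, Htr2a, Chrm1 and Chrm3). Of these 8, 0 were called higher and 2 (Htr1f and Htr2c) were not called. Over all 14707 genes, 13.7% were called lower and 9.44% higher (2022 and 1389 genes); with library totals in place of TMM scaling, 1702 were called lower and 1931 higher, and the calls of the 8 receptors stayed as they were. The split was even between the couplings, with 3 of 4 Gi/o-coupled and 3 of 4 Gq-coupled receptors called lower. The median log2 fold change of the 8 was -1.49, against 0.03 for all genes tested. All 4 Htt-72Q libraries lay below all 4 control vector libraries for 6 of the 8 receptors, while 13.6% of all genes lay apart in that direction.

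**Figure D1:**
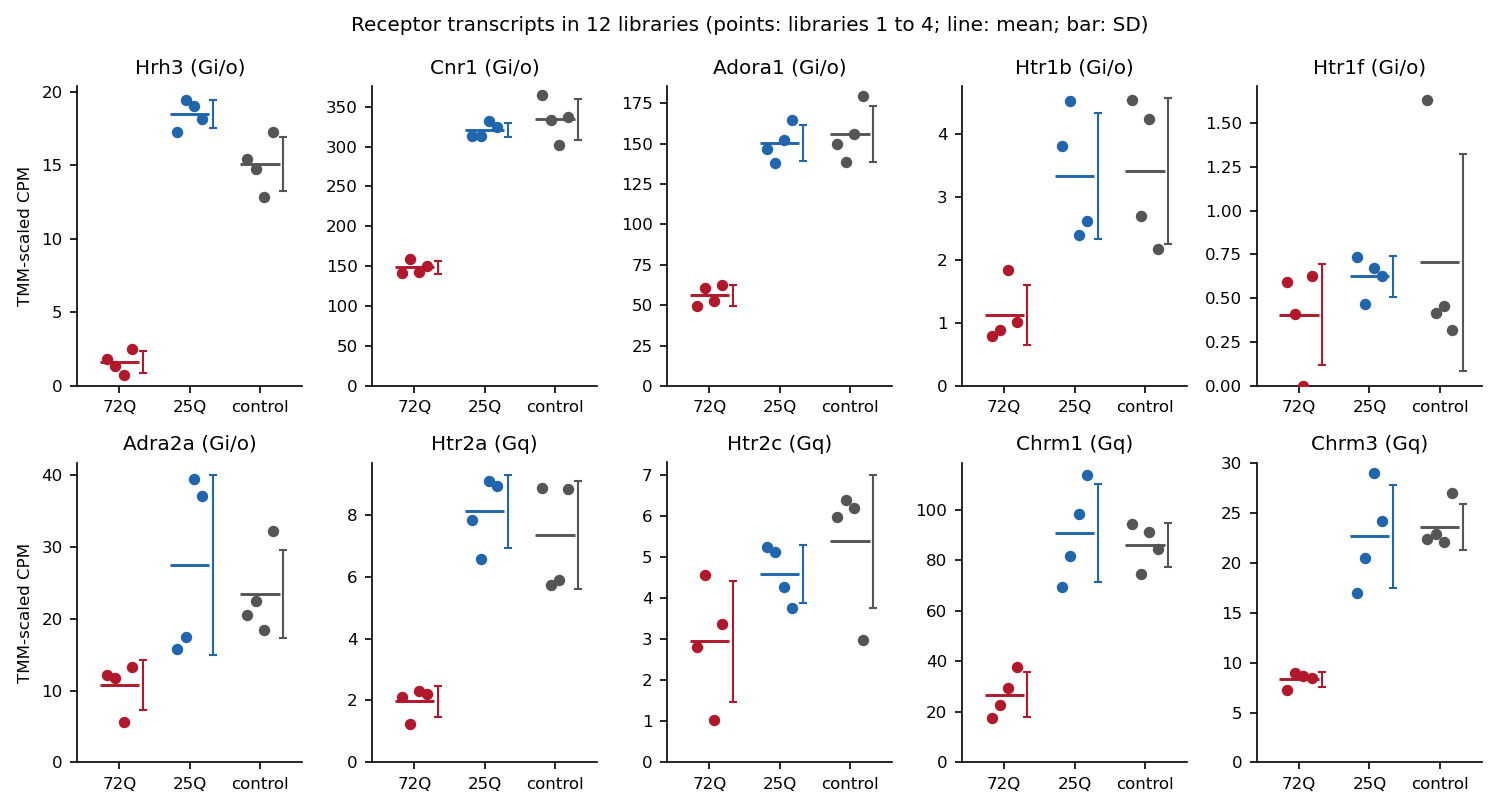
Each panel plots 1 receptor, with its coupling in brackets; the vertical axis is TMM-scaled CPM from 0, points are libraries 1 to 4 from left to right within a group, horizontal lines are means and bars are SDs. In 8 of the 10 panels all Htt-72Q points (red, left) lie below all Htt-25Q (blue) and control vector (grey) points. These 8 include Hrh3 and Cnr1, which were chosen on that fall. Htr1f and Htr2c are the exceptions. Of all genes tested, 13.6% lay apart and lower against control vector and 15.1% against Htt-25Q, each comparison taken alone.

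Hrh3 encodes the histamine H3 receptor, a presynaptic receptor that holds back release of histamine and of other transmitters (chr2:180099465-180104488, minus strand, GRCm38). Hrh3 had 1.84, 1.37, 0.717 and 2.52 CPM in Htt-72Q, against 17.3, 19.5, 19.0 and 18.2 CPM in Htt-25Q and 15.4, 14.8, 12.9 and 17.3 CPM in control vector. In counts these were 28, 20, 9 and 52 in Htt-72Q, against 399, 418, 508 and 319 in Htt-25Q and 350, 247, 255 and 215 in control vector. The highest Htt-72Q library lay far below the lowest of the other 8, and the Htt-72Q libraries spread more among themselves, relative to their mean, than the others (coefficient of variation 47.2% in Htt-72Q, 5.20% in Htt-25Q and 12.1% in control vector). The log2 fold change was -3.18 (SE 0.26, 95% interval -3.74 to -2.62) against control vector, which is 9.07-fold lower. Against Htt-25Q it was -3.48 (SE 0.26). For Hrh3, as for Cnr1 below, SEs and intervals describe the spread and do not allow for the choice on this fall. Ordered from the most negative, Hrh3 stood at 15 of the 14707 genes in the first comparison and at 8 in the second, as chosen.

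Cnr1 encodes the CB1 cannabinoid receptor, which sits on axon terminals and mediates retrograde suppression of release (chr4:33924593-33948831, plus strand). Cnr1 had 142, 159.6, 143 and 151 CPM in Htt-72Q, against 314, 314, 332 and 325 CPM in Htt-25Q and 365, 333, 302 and 337 CPM in control vector. The 4 Htt-72Q libraries were close to each other and all lay under the other 8. The log2 fold change was -1.17 (SE 0.10, 95% interval -1.38 to -0.96) against control vector and -1.11 (SE 0.10) against Htt-25Q. Cnr1 thus had the smaller difference of the 2 genes that the set was built on, at a higher level per length: 49.1 RPKM in Htt-25Q and 50.7 RPKM in control vector, where Hrh3 had 5.79 RPKM in Htt-25Q and 4.69 RPKM in control vector.

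Adora1, the adenosine A1 receptor, which damps release at excitatory synapses, was the second most abundant receptor (chr1:134199223-134235431, minus strand). Adora1 had 49.2, 60.8, 52.3 and 62.5 CPM in Htt-72Q, against 147, 138, 152 and 165 CPM in Htt-25Q and 149.7, 139, 156 and 179 CPM in control vector. Groups did not overlap between Htt-72Q and either other group. The log2 fold change against control vector was -1.47 (SE 0.12; edgeR adjusted p = 1.58e-06), and it was called lower.

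Adra2a, the alpha-2A adrenoceptor, mediates noradrenaline's action on prefrontal neurons and is an autoreceptor in noradrenergic cells (chr19:54045182-54048982, plus strand). Adra2a had 12.2, 11.8, 5.58 and 13.3 CPM in Htt-72Q, against 15.9, 17.4, 39.5 and 37.2 CPM in Htt-25Q and 20.6, 22.5, 18.5 and 32.3 CPM in control vector. Every Htt-72Q library was below the other 8, but Htt-25Q fell into a lower and a higher pair. The lower pair was libraries 1 and 2, of preparations 22 and 24. The higher pair was libraries 3 and 4, of preparations 27_1 and 27. Control vector was also highest in preparation 27_1 (library 4, 32.3 CPM). The log2 fold change against control vector was -1.12 (SE 0.33; edgeR adjusted p = 0.0234), and Adra2a was called lower. The call was lost when either of 2 libraries was left out. Without Htt-72Q library 3 the log2 fold change was -0.91 (edgeR adjusted p = 0.0583), and without control vector library 4 it was -0.93 (edgeR adjusted p = 0.0672). The call was kept in 23 of 25 alternative settings, including the fit with preparation as a replicate block. Adjusted p ranged from 6.48e-04 to 0.0672 over the 25 settings. Within preparations, Adra2a in Htt-72Q was lower in all 4, at 30.2 to 59.4% of control vector.

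Htr1b, a serotonin autoreceptor and terminal receptor, was low in all groups (chr9:81628291-81633828, minus strand). Htr1b had 0.788, 0.887, 1.83 and 1.02 CPM in Htt-72Q, against 3.81, 4.52, 2.39 and 2.62 CPM in Htt-25Q and 4.54, 2.69, 4.24 and 2.17 CPM in control vector. The Htt-72Q libraries held 12 to 23 counts each, and their highest value was just under the lowest control vector value. Htr1b was called lower, with a log2 fold change of -1.62 (SE 0.35; edgeR adjusted p = 0.00401).

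Htr1f, the other serotonin receptor of this Gi/o-coupled kind in the set, was near the limit of detection (chr16:64924729-65105784, minus strand). Htr1f had 0.591, 0.410, 0 and 0.629 CPM in Htt-72Q, against 0.736, 0.466, 0.674 and 0.626 CPM in Htt-25Q and 1.63, 0.419, 0.454 and 0.321 CPM in control vector. The 0 in Htt-72Q library 3 is 0 counts, which allows a level of up to 0.239 CPM (3 counts, counting error only). The groups overlapped, and 3 of the 4 control vector libraries were in the range of Htt-72Q. The log2 fold change of -0.78 had a 95% interval of -2.15 to 0.59 (edgeR adjusted p = 0.415), so that large falls and small rises both lie within it. Without control vector library 1 the value was 0.07.

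Among the Gq-coupled receptors, Htr2a, the cortical serotonin receptor at which psychedelics act, had the most negative log2 fold change of the 8 tested (chr14:74640840-74706859, plus strand). Htr2a had 2.10, 1.23, 2.31 and 2.23 CPM in Htt-72Q, against 7.84, 6.56, 9.09 and 8.94 CPM in Htt-25Q and 8.85, 5.74, 5.90 and 8.84 CPM in control vector. No Htt-72Q library reached the other groups, of which each split into higher and lower libraries. Htr2a was called lower, with a log2 fold change of -1.89 (SE 0.25; edgeR adjusted p = 7.84e-05).

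Htr2c, its X-linked relative, whose RNA is edited in the brain, was not called (chrX:146962513-147197277, plus strand). Htr2c had 2.82, 4.57, 1.04 and 3.39 CPM in Htt-72Q, against 5.24, 5.12, 4.27 and 3.76 CPM in Htt-25Q and 5.99, 6.40, 6.21 and 2.97 CPM in control vector. Htt-72Q library 2 overlapped Htt-25Q, and control vector library 4 lay within the Htt-72Q range and far from the other 3 control vector libraries. The log2 fold change was -0.86 (SE 0.35, 95% interval -1.61 to -0.12; edgeR adjusted p = 0.0889). It crossed the threshold without control vector library 4 (log2 fold change -1.06, edgeR adjusted p = 0.0397) and without Htt-72Q library 2 (-1.16, edgeR adjusted p = 0.0425), in a range of 0.0397 to 0.175 over 25 alternative settings.

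Chrm1, the muscarinic M1 receptor of cortical pyramidal neurons, had the third highest level of the set (chr19:8663789-8683587, plus strand). Chrm1 had 17.5, 22.7, 29.6 and 37.7 CPM in Htt-72Q, against 69.6, 81.9, 98.2 and 114 CPM in Htt-25Q and 94.6, 74.8, 91.2 and 84.6 CPM in control vector. The Htt-72Q libraries ranged widely, from 17.5 to 37.7 CPM, and still did not meet the other groups. Chrm1 was called lower, with a log2 fold change of -1.68 (SE 0.21; edgeR adjusted p = 6.68e-05).

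Chrm3, the muscarinic M3 receptor, also Gq-coupled, varied less than Chrm1 among the Htt-72Q libraries (coefficient of variation 9.04% for Chrm3 and 32.6% for Chrm1), with similar variation in the other groups (chr13:9875486-10360844, minus strand). Chrm3 had 7.22, 8.94, 8.61 and 8.46 CPM in Htt-72Q, against 16.9, 20.5, 29.0 and 24.2 CPM in Htt-25Q and 22.4, 22.8, 22.1 and 27.0 CPM in control vector. The Htt-72Q libraries lay below both other groups, which overlapped each other. Chrm3 was called lower, with a log2 fold change of -1.50 (SE 0.17; edgeR adjusted p = 2.91e-05).

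Exons of 4 of these genes overlap a gene on the opposite strand, and the labels do not give the strandedness of the libraries, so reads there cannot be told apart. The shared stretch is 11.1% of the Hrh3 exon length (with Gm17180), 20.1% of that of Adora1 (with Mybph), 18.04% of that of Htr1b (with D430036J16Rik) and 5.07% of that of Chrm1 (with Gm22820). Gm17180 held at most 4 counts in a library, Mybph at most 22, D430036J16Rik at most 23 and Gm22820 0 in all. D430036J16Rik had 1, 4, 0 and 5 counts in Htt-72Q, against 16, 1, 23 and 18 in Htt-25Q and 8, 2, 4 and 8 in control vector.

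Htt-72Q was also set against Htt-25Q, which asks what repeat length does when both groups carry exon 1. This comparison shares the Htt-72Q libraries with the one above. The receptors called lower were 6 of the 8 (Adora1, Htr1b, Adra2a, Htr2a, Chrm1 and Chrm3), 0 were called higher, and Htr1f and Htr2c were not called; 13.4% of all genes were called lower. The median log2 fold change of the 8 was -1.43, against 0.03 for all genes. All Htt-72Q libraries lay below all Htt-25Q libraries for 6 of the 8 receptors, against 15.1% of all genes. Htr2a had again the most negative value of the 8, -2.04 (SE 0.24; edgeR adjusted p = 4.04e-05), and Chrm1 followed with -1.76 (SE 0.21; edgeR adjusted p = 4.64e-05). Adora1 was called with a log2 fold change of -1.42 (SE 0.12; edgeR adjusted p = 2.22e-06) and Chrm3 with -1.45 (SE 0.17; edgeR adjusted p = 3.95e-05). Htr1b (-1.57, SE 0.35, edgeR adjusted p = 0.00474) and Adra2a (-1.35, SE 0.33, edgeR adjusted p = 0.00875) were called as well. The Adra2a value mixes preparations, since Htt-72Q holds preparation 26 and Htt-25Q holds 27. Within preparations 22, 24 and 27_1, Adra2a in Htt-72Q stood at 77.1, 67.8 and 33.7% of Htt-25Q. Over 25 alternative settings its log2 fold change ranged from -1.74 to -0.94, and the call was kept in all 25. Htr2c had -0.63 (95% interval -1.37 to 0.11; edgeR adjusted p = 0.221) and Htr1f -0.55 (95% interval -1.93 to 0.82; edgeR adjusted p = 0.589).

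Htt-25Q against control vector asks what exon 1 with a normal repeat does, and here all 10 receptors were tested, since the choice did not use it. Of the 10, 0 were called, and 0.0% of all genes were called in either direction. Without adjustment, 0 of the 10 receptors and 129 of the 14707 genes had an edgeR p under 0.05. With no difference at all, a share of about 0.05 of the genes would have such a p, so this test was conservative. Its spread includes differences between preparations. DESeq2, limma voom and a fit with preparation as a replicate block also called 0 genes. The absence of calls does not show that levels were equal. The log2 fold changes lay between -0.24 (Htr2c, 95% interval -0.96 to 0.48) and 0.29 (Hrh3, 95% interval -0.19 to 0.78). For Cnr1 the interval was -0.26 to 0.15 and for Adora1 -0.30 to 0.20, while for Htr1f it was -1.51 to 1.05, so the precision differed widely between receptors. Hrh3 was the 1 receptor whose groups lay apart, all Htt-25Q libraries being above all control vector libraries (17.28 CPM for the lowest Htt-25Q library against 17.27 CPM for the highest control vector library). Over all genes, 0.673% lay apart in that direction and 0.32% in the other, and for Hrh3 the test did not pass (edgeR adjusted p = 1).

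**Figure D2:**
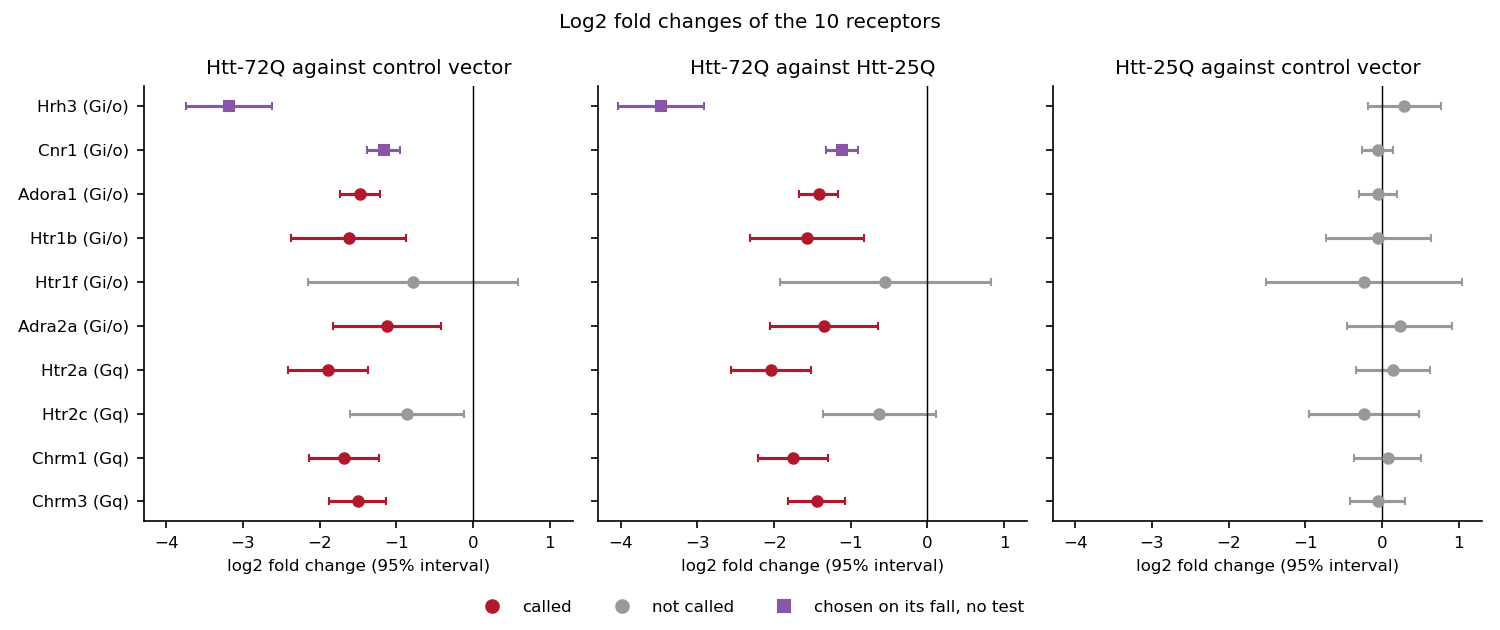
Log2 fold changes of the 10 receptors in the 3 comparisons, with 95% intervals from the edgeR fit. Red circles were called and grey circles were not. Purple squares (Hrh3 and Cnr1) carry no test because they were chosen on these values, and their intervals do not allow for that choice. In both Htt-72Q panels every point lies left of 0, and in the Htt-25Q panel all 10 intervals include 0.

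The preparation numbers allow each Htt-72Q library to be set beside the control vector library of its own preparation, in 4 pairs. The level in Htt-72Q was lower in all 4 pairs for 6 of the 8 receptors other than Hrh3 and Cnr1, and for 23.9% of all genes tested. Hrh3 stood at 11.9, 9.24, 5.58 and 14.6% of the control vector level in preparations 22, 24, 26 and 27_1. The range over preparations was 38.9 to 48.0% for Cnr1, 32.9 to 43.9% for Adora1 and 31.4 to 39.1% for Chrm3, the narrowest of the set. It was 17.4 to 46.8% for Htr1b, 18.5 to 44.6% for Chrm1, 21.4 to 39.2% for Htr2a and 30.2 to 59.4% for Adra2a. Htr2c was lower in 3 of 4 preparations and stood at 114% in preparation 27_1, that of control vector library 4. Htr1f was lower in 3 of 4, between 0 and 196%. In 3 preparations that also hold an Htt-25Q library, Hrh3 in Htt-25Q stood at 110.04 to 132% of control vector, and Cnr1 at 86.0 to 98.6%.

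**Figure D3:**
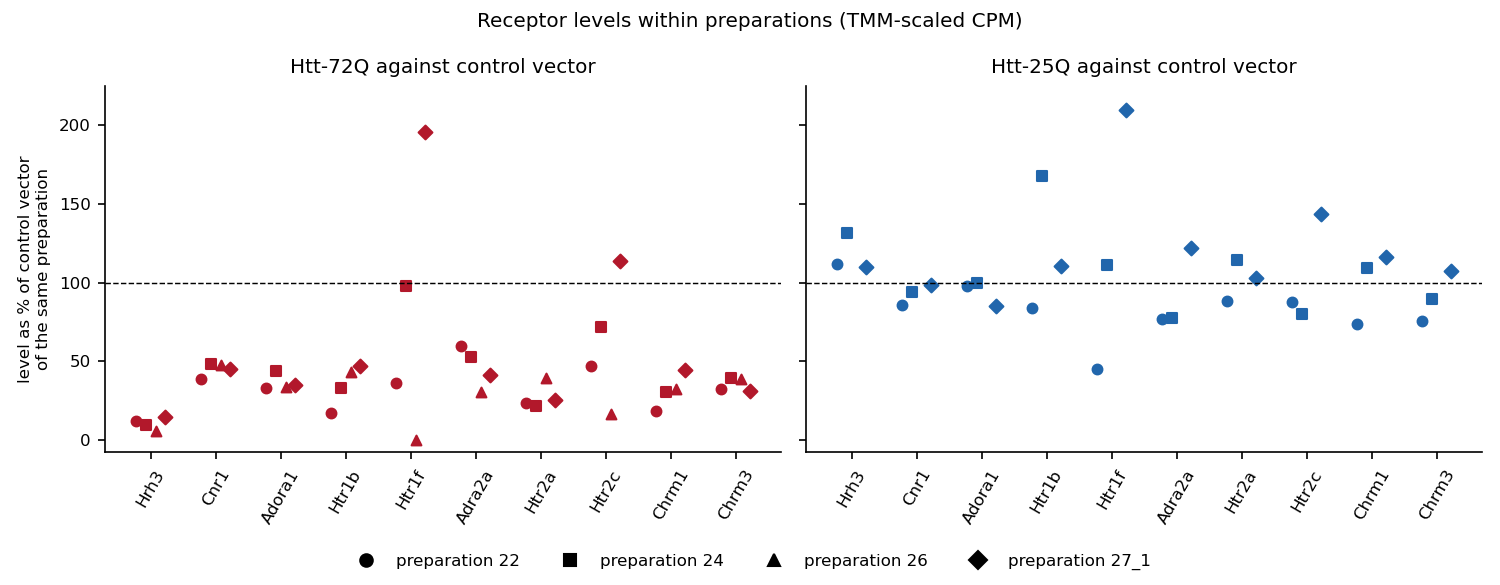
Level of each receptor as a percentage of the control vector library of the same preparation (TMM-scaled CPM; dashed line where both levels are equal), for Htt-72Q (left, red, 4 preparations) and Htt-25Q (right, blue, 3 preparations). Hrh3 has the lowest Htt-72Q points apart from the 0 of Htr1f, between 5.58 and 14.6%.

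Because RPKM, the count scaled to library total and gene length, takes length into account, it allows receptors to be compared with each other. In control vector the order was Cnr1 (50.7 ± 4.19 RPKM), Adora1 (26.3 ± 2.86), Chrm1 (13.0 ± 1.15), Adra2a (6.04 ± 1.62), Chrm3 (5.12 ± 0.530), Hrh3 (4.69 ± 0.602), Htr2a (2.41 ± 0.574), Htr1b (0.703 ± 0.231), Htr2c (0.565 ± 0.170) and Htr1f (0.274 ± 0.239; SD, n = 4 each). The ranges of neighbours overlapped between Adra2a and Chrm3, between Chrm3 and Hrh3, between Htr1b and Htr2c and between Htr2c and Htr1f, so the ranges alone do not order those neighbours. Ranges do not use that receptors were measured in the same libraries. Chrm3 was above Hrh3 in each control vector library (4.83, 5.05, 4.71 and 5.88 RPKM against 4.76, 4.68, 3.93 and 5.39). The other overlapping neighbours did not keep the same order in every library. The first 3 places were the same in Htt-72Q and Htt-25Q. In Htt-72Q, Cnr1 had 23.9 ± 1.63 RPKM, Adora1 10.1 ± 1.22 and Chrm1 4.28 ± 1.36, and Hrh3, at 0.531 ± 0.251 RPKM, held place 7, against place 5 in Htt-25Q and place 6 in control vector. The Hrh3 range overlapped those of Htr2a, Htr2c, Htr1b and Htr1f in Htt-72Q. In Htt-25Q and in control vector it overlapped those of Adra2a and Chrm3, so by their ranges these places are not firm.

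Added over the 10 receptors, the level was 45.02 ± 4.21 RPKM in Htt-72Q, against 110.5 ± 8.09 RPKM in Htt-25Q and 109.8 ± 7.71 RPKM in control vector. Cnr1 alone made up 53.2% of the sum in Htt-72Q, 44.6% in Htt-25Q and 46.2% in control vector. Hrh3 made up 1.16% in Htt-72Q, 5.27% in Htt-25Q and 4.26% in control vector. The Gi/o-coupled receptors together held 84.0% in Htt-72Q, 80.3% in Htt-25Q and 80.8% in control vector.

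**Figure D4:**
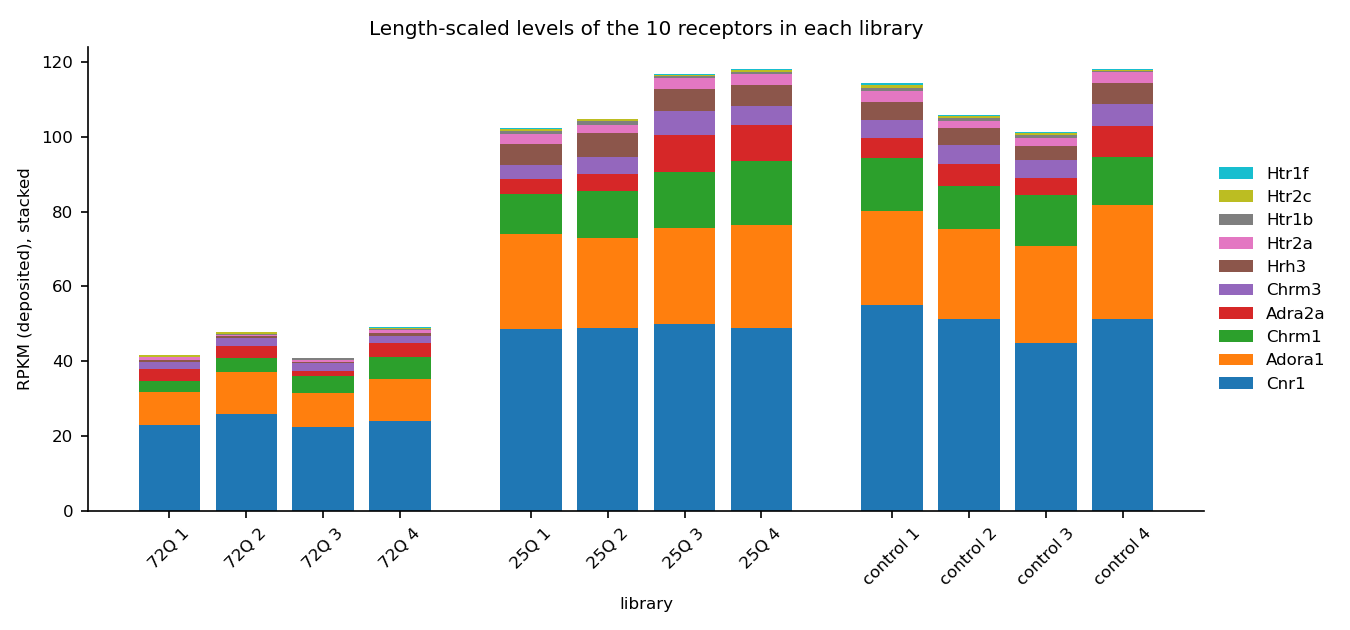
Deposited RPKM of the 10 receptors stacked for each library (vertical axis from 0), with the Htt-72Q libraries left, Htt-25Q in the middle and control vector right. The Htt-72Q columns reach 41.0 to 49.3 RPKM and the control vector columns 101 to 118 RPKM, with Cnr1 and Adora1 filling most of each column.

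Within each of 3 subfamilies, 2 receptors could be compared by their log2 ratio in each library (after adding 0.5 CPM to both), a comparison chosen after the values had been seen. The log2 ratio of Htr2a to Htr2c was -0.39 ± 0.99 in Htt-72Q, against 0.76 ± 0.39 in Htt-25Q and 0.44 ± 0.73 in control vector (SD, n = 4 each). The difference was -0.82 against control vector (two-sided exact permutation p = 0.229, adjusted p = 0.274 over 6 tests) and -1.14 against Htt-25Q (two-sided exact permutation p = 0.0857, adjusted p = 0.257). For Htr1b to Htr1f the difference against control vector was -0.89 (two-sided exact permutation p = 0.114) and for Chrm1 to Chrm3 it was -0.26 (two-sided exact permutation p = 0.371). With 4 against 4 libraries the smallest p is 0.0286. These tests do not use the preparations. Within preparations, the Htt-72Q ratio was below the control vector ratio in 4 of 4 for Htr1b to Htr1f (differences -1.28 to -0.09). The direction in preparation 26 rests on the added 0.5 CPM, as Htt-72Q had 0 CPM of Htr1f there. In that preparation Htr1b stood at 43.3% and Htr1f at 0% of control vector. The ratio was lower in 3 of 4 preparations for Htr2a to Htr2c and in 3 of 4 for Chrm1 to Chrm3. A paired exact test of 4 pairs cannot go below 0.125. Thus, although Htr2a was called and Htr2c was not, their changes were not shown to differ.

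Genes whose pattern over the 12 libraries was close to that of Hrh3, by the root mean square difference of centred log2 (CPM + 0.5) among 12231 genes, were Nwd2 (0.32), Tgm3 (0.34), Syt10 (0.36) and Rtn4rl1 (0.36). Syt10 is a synaptotagmin, a family of calcium sensors for vesicle release. The genes most like Cnr1 were Add2 (0.068), a membrane skeleton protein, Smpd3 (0.096), a neutral sphingomyelinase, Dgkd (0.10), a diacylglycerol kinase, Coro2a (0.11) and Reps2 (0.11). Within the set, Adora1 was nearest to Cnr1 (0.19) and Htr2a was nearest to Hrh3 (0.73). These values describe likeness over libraries that share the same group differences.

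The other receptors for histamine, cannabinoids, adenosine, serotonin, acetylcholine and noradrenaline form a list of 26 genes, of which 18 could be tested. In Htt-72Q against control vector 4 were called lower and 1 higher, and 13 were not called, with a median log2 fold change of -0.64. The shares of all genes, for this list and those below, are 13.7% called lower and 9.44% called higher. Htr1a, the main Gi/o-coupled serotonin receptor of cortex, averaged 4.22 ± 1.72 CPM in Htt-72Q, against 13.6 ± 1.57 CPM in control vector (log2 fold change -1.70; edgeR adjusted p = 9.96e-05). Adrb1, the beta-1 adrenoceptor, averaged 2.22 ± 0.704 CPM in Htt-72Q, against 7.79 ± 3.40 CPM in control vector (log2 fold change -1.79; edgeR adjusted p = 0.00409). Htr7, which raises cyclic AMP, was called lower with a log2 fold change of -0.99 (edgeR adjusted p = 0.0147). The remaining 1 of the 4, Chrm4, named here after its value was seen, was at the threshold (-0.93; edgeR adjusted p = 0.0488).

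Htr4, a serotonin receptor that raises cyclic AMP through Gs, went the other way. It averaged 2.79 ± 0.852 CPM in Htt-72Q, against 0.706 ± 0.270 CPM in control vector, and was called higher (log2 fold change 1.94, SE 0.34; edgeR adjusted p = 9.77e-04). Against Htt-25Q its log2 fold change was 1.71 (edgeR adjusted p = 0.00197). In that comparison 7 of the 18 receptors were called lower and 1 higher. In a fit with preparation as a replicate block, 8 of the 18 were called lower and 2 higher against control vector. That fit also called more of all genes, 2523 lower and 1967 higher, against 2022 and 1389 in the main fit.

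Dopamine and opioid receptors were tested for 5 of 9 genes, with 3 called lower (Oprd1, Drd1 and Drd2), 0 higher and 2 not called in Htt-72Q against control vector. Oprd1, the delta opioid receptor, averaged 4.14 ± 0.619 CPM in Htt-72Q, against 7.001 ± 1.28 CPM in control vector (log2 fold change -0.76; edgeR adjusted p = 0.00965). Drd1 (-0.94; edgeR adjusted p = 0.0291) and Drd2 (-0.95; edgeR adjusted p = 0.045) were near the threshold. The Drd2 call was lost in 16 of 25 alternative settings (edgeR adjusted p up to 0.138, without control vector library 1) and the Drd1 call in 5 of 25. Against Htt-25Q, 1 of the 5 was called lower (Oprd1) and 1 higher (Oprl1, named here after its value was seen). Oprl1 had the highest level of the 5, with means of 131 CPM for Htt-72Q, 91.3 CPM for Htt-25Q and 104 CPM for control vector. Its log2 fold change against Htt-25Q was 0.52 (edgeR adjusted p = 0.0421), with overlapping libraries. Against control vector Oprl1 was not called (0.33, edgeR adjusted p = 0.184).

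Of the Gi/o pathway, from G alpha subunits to adenylyl cyclases and potassium channels, 16 of 17 genes were tested; 10 were called lower, 0 higher and 6 were not called in Htt-72Q against control vector, with a median log2 fold change of -0.56. Adcy1, a calcium-stimulated adenylyl cyclase of cortex, averaged 623 ± 48.1 CPM in Htt-72Q, against 1759 ± 406 CPM in control vector (log2 fold change -1.50; edgeR adjusted p = 1.84e-05). Adcy8, also a calcium-stimulated cyclase, had a log2 fold change of -1.72 (edgeR adjusted p = 3.99e-04). Kcnj3, the GIRK1 potassium channel subunit that Gi/o receptors open, had -1.09 (edgeR adjusted p = 0.00218). Against Htt-25Q, 9 of the 16 were called lower and 0 higher.

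Of the Gq pathway, 14 of 17 genes were tested; 6 were called lower, 1 higher and 7 were not called, with a median log2 fold change of -0.37. Plcb1, the phospholipase C that M1 receptors act on in cortex, averaged 83.5 ± 9.05 CPM in Htt-72Q, against 201 ± 14.8 CPM in control vector (log2 fold change -1.27; edgeR adjusted p = 3.31e-06). Prkce, a protein kinase C, had -1.06 (edgeR adjusted p = 8.29e-05). The diacylglycerol kinases, which remove the second messenger made by phospholipase C, went both ways. Dgkz was called lower (-1.41; edgeR adjusted p = 1.12e-05), whereas Dgkb averaged 34.7 ± 5.79 CPM in Htt-72Q, against 14.995 ± 1.31 CPM in control vector, and was called higher (1.21; edgeR adjusted p = 6.43e-05). Against Htt-25Q, 6 of the 14 were called lower and 1 higher.

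The remaining lists cover what works beside the receptors. With 13.7% of all genes called lower and 9.44% higher, 1 or 2 calls in a list do not set it apart. Of 12 tested G protein beta and gamma subunits, 2 were called lower (Gng7 with a log2 fold change of -1.10 and Gnb4 with -0.92), 0 higher and 10 were not called. Of 7 tested receptor kinases and arrestins, which switch active receptors off, 3 were called lower (Grk5 with -0.90, Grk2 with -0.51 and Arrb1 with -0.48) and 0 higher. Of 10 genes of endocannabinoid synthesis and breakdown, 2 were called lower, Faah, which degrades anandamide (-0.86), and Cnrip1, which binds the CB1 receptor (-0.45), and 0 higher. Of 17 tested genes that handle monoamines, acetylcholine and adenosine, 1 was called lower, the transporter Slc22a3 (-2.08), and 2 higher, Maoa, a monoamine oxidase (0.63), and Adk, adenosine kinase (0.56). In Htt-25Q against control vector 0 genes of these 8 lists were called.

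**Figure D5:**
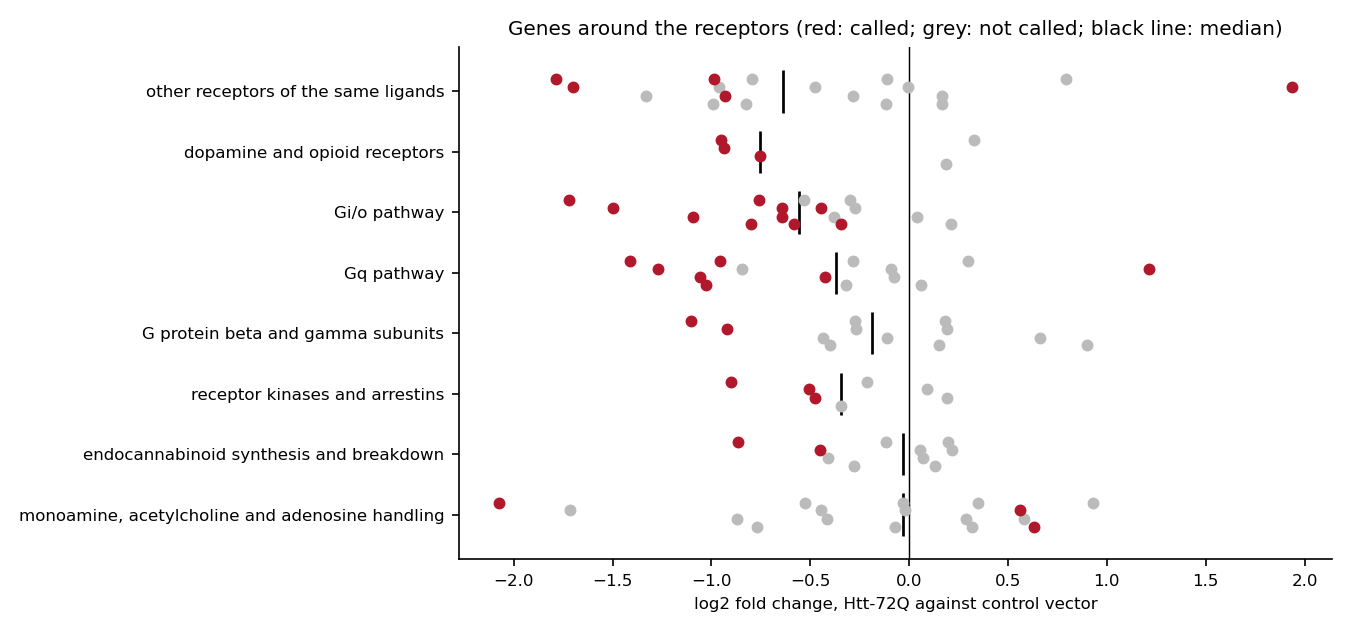
Log2 fold change in Htt-72Q against control vector (horizontal axis) of every tested gene in 8 lists around the receptors; red points were called, grey points were not, and black lines are medians. The medians lie between -0.76 and -0.03, and the red points right of 0 are Htr4, Dgkb, Maoa and Adk.

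Markers of cell types were set beside these results, since in bulk RNA fewer cells of a type and less RNA per cell cannot be told apart. Excitatory neuron markers were called lower for 7 of 10 genes in Htt-72Q against control vector, and their summed level was 349 to 493 CPM in Htt-72Q, against 747 to 963 in Htt-25Q and 725 to 839 in control vector. Inhibitory neuron markers were called lower for 5 of 10, with sums of 179 to 250.03 CPM in Htt-72Q, against 274 to 509.6 in Htt-25Q and 322 to 446 in control vector. Pan-neuronal markers were called lower for 4 of 8, with sums of 4831 to 5031 CPM in Htt-72Q, against 6077 to 7112 in Htt-25Q and 6634 to 7754 in control vector. In these lists 0 genes were called higher. The mean sum in Htt-72Q was 49.4% of control vector for excitatory, 54.6% for inhibitory and 71.1% for pan-neuronal markers, against 10.7% for Hrh3, 44.6% for Cnr1 and 26.8 to 57.7% for the other 8 receptors.

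Astrocyte markers were called for 0 of 10 genes, with sums of 2563 to 3008 CPM in Htt-72Q, against 2492 to 3179 in Htt-25Q and 2773 to 3269 in control vector. Oligodendrocyte lineage markers (0 of 10) and neural progenitor markers (0 of 7 tested) were not called against control vector; against Htt-25Q, Mog (edgeR adjusted p = 0.0445) and Hes1 (edgeR adjusted p = 0.0364) were called lower and Vim (edgeR adjusted p = 0.0496) higher, named here after their values were seen. Of 4 tested fibroblast and vascular markers 1, Rgs5, was called lower. Of 10 microglia markers, 9 were under 1 CPM in every library, and their sum was 7.22 to 25.4 CPM in Htt-72Q, against 7.80 to 12.7 in Htt-25Q and 3.70 to 13.6 in control vector. Of 10 fibroblast and vascular markers 6 were under 1 CPM in every library, and 0 genes of any marker list were at 0 counts in all libraries. Progenitor markers summed to 277 to 353 CPM in Htt-72Q, against 233 to 302 in Htt-25Q and 248.6 to 274 in control vector. The part of the neuronal markers in the receptor result was not tested. The share of counts on mitochondrial ribosomal RNA was 10.8 to 14.8% in Htt-72Q, 7.77 to 13.2% in Htt-25Q and 6.71 to 14.2% in control vector, and its part was not tested either.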

How the data were processed

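RNA-seq counts of 12 libraries (4 each of Htt-72Q, Htt-25Q and control vector) were used as deposited; GEO's titles gave the groups. The authors deposited, for each of 41388 genes, a raw read count, a CPM (the count relative to its library's total) and an RPKM (CPM per kilobase of gene length), per the file headers; the deposited CPM and RPKM follow from the counts to within 5.09e-10. Per the submitters' processing notes, the build was GRCm38 and the tools included featureCounts 1.45, Subread and STAR 2.0.4b; their roles and settings, strandedness and the treatment of multi-mapped reads were not given in the sources used here. Per the labels, the 2 lanes of a library were merged. No 2 libraries were duplicates (smallest chi-square per degree of freedom 9.00 over 66 pairs).

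Counts were tested in R 4.3.3 with edgeR 4.0.16 (TMM, filterByExpr at a minimum count of 10, quasi-likelihood test, 1 fit of 12 libraries on 3 groups, 9 residual degrees of freedom). P-values were two-sided and Benjamini-Hochberg adjusted over 14707 genes. SEs come from the fold change and the F statistic, and intervals are 95% intervals of that fit. The fit was tested on simulated data, with an outcome that is not reported here. Alternatives were DESeq2 1.42.0, limma voom 3.58.1, a surrogate variable (sva 3.50.0), other scalings and filters, preparation or title number as a block, a class of libraries by Ctnnd1 level as covariate, the 2 groups alone, and leaving out each library.

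The receptors, gene lists and marker lists were chosen with earlier results of these data known. Named were all 10 receptors, up to 3 called genes in each direction per pathway list by smallest p in Htt-72Q against control vector, and the 5 genes most like Hrh3 and Cnr1, of which 1 is not reported here. Libraries of the same preparation deviated together (residual correlation over 0.1 in 10 of 10 pairs, median 0.28), so the preparation pairs samples; same-numbered titles did so in 10 of 12 pairs. Promoter windows came from RefSeq and gene positions from the files' build, GRCm38. Counting error alone underlies the limit given for 0 counts.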

Additional observations from a re-analysis of the deposited data

Results flagged for a closer look

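In each of the 30 sets of 4 libraries (10 receptors in 3 groups) the highest or lowest library was compared with the others by the gap to its nearest neighbour over the whole range. The gap passed Dixon's 95% critical value in 3 sets; chance alone flags about 1 in 20 sets. Control vector library 1 had 1.63 CPM of Htr1f (37 counts), against 0.321 to 0.454 CPM in the other control vector libraries. Control vector library 4 had 2.97 CPM of Htr2c, against 5.99 to 6.40 CPM in the other 3. The same library had 27.0 CPM of Chrm3, against 22.1 to 22.8 CPM in the other 3. Leaving this library out brought Htr2c past the threshold and Adra2a to the other side of it, as given above.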

How the results depend on the processing

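All 10 receptors and 24 named list genes were refitted under 25 alternative settings, of which 12 leave out 1 library each; Htr1f could not be fitted in 2 of them against control vector and in 1 in each other comparison, where it failed the filter. Of the log2 fold changes compared with the main values, 1318 kept their side of the threshold, 1300 of them with the same sign; the sign of 18 uncalled values crossed 0, 17 in Htt-25Q against control vector and 1 of Htr1f, given above. No called value reversed; 23 lost a call, 4 gained one and 1 value without a test moved by more than the spread between replicates. The 4 gained calls were all of Htr2c in Htt-72Q against control vector: DESeq2 (-0.87, adjusted p = 0.0445), a replicate block by preparation with 27 and 27_1 taken as 1 (-0.89, edgeR adjusted p = 0.0415) and the 2 libraries named above. Of the 23 lost calls, 2 were of Adra2a, 16 of Drd2 and 5 of Drd1. Cnr1 against Htt-25Q moved to -1.04 with library totals. The number of receptors called lower of the 8 was 5 to 7 against control vector and 6 in every setting against Htt-25Q; with preparation as a replicate block it was 6, and the paired fit called 4490 of all genes, against 3411 without it. Over all settings the genes called ranged from 2595 to 5004 against control vector, and 0 genes were called in Htt-25Q against control vector in any of them. Counts for lists changed in 31 of 400 cases by over 1.5 times. Depth limits Htr1f (0 to 37 counts in a library), Htr1b and, in Htt-72Q, Hrh3.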
